A study of Mus musculus with 8 samples.

Results

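The left end of the captured Kcnj2 and Sox9 locus, chromosome 11 from 109010001 to 110200000 (mm9), to the left of the edited sequence, is described here in E12.5 mouse limb buds. It was chosen by its coordinates alone: every pair of 10 kb bins inside the interval, from 20 kb apart upwards, which gave 6903 bin pairs of the 171405 in the whole map of 587 bins. The interval is called the flank below. Capture Hi-C joins DNA ends that lay close together in the nucleus, pulls down those of one locus and counts sequenced pairs as contacts. The maps come from 8 homozygous genotypes, 1 library for each, which the labels name InvC, InvIntra, InvC∆Bor, BorKnockIn, ∆CTCF, ∆BorC1, ∆BorC1-2 and ∆BorC1-4. The series describes them as CTCF-site deletions, insertions and inversions made with CRISPR/Cas9, and the labels give G4 embryonic stem cells as the background of all 8. Each library pooled the fore- and hindlimb buds of 3 to 8 embryos, so it is a mixture of cell types and has no replicate. The wildtype library was not analysed here.

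Mammalian chromosomes are folded into topologically associating domains, stretches within which places meet more often than across their borders. Many borders carry sites for CTCF, a DNA-binding protein at which the loop-forming cohesin complex is held, and paired CTCF sites are often seen as focal points of high contact at domain corners. An unedited stretch on the same chromosome shows how far such a layout repeats when the surrounding sequence is changed elsewhere.

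By their order in RefSeq (GRCm38), 14 protein-coding genes lie between Axin2, an inhibitor of Wnt signalling, and Map2k6, a kinase of the p38 pathway, the order in which this side of the locus runs towards Kcnj2. They include Rgs9 and Gna13 (G protein signalling), Slc16a6 (a transporter of the monocarboxylate family), Arsg (a sulfatase), Wipi1 (autophagy), Prkar1a (a regulatory subunit of protein kinase A), Fam20a and a run of 5 ABC transporter genes, Abca8b, Abca8a, Abca9, Abca6 and Abca5. Between Kcnj2 and Sox9 the same table lists 1 protein-coding gene. No mm9 annotation was used here, so no gene is placed at a border and the exact genes inside the flank were not determined.

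The flank took a similar share of the contacts of every library, at depths that differed. It held between 239200 raw contacts in InvC∆Bor and 735014 in ∆BorC1-4, of library totals of 3056502 to 9045698. Its share of a library's contacts ran from 7.45% in BorKnockIn (exact Clopper-Pearson 95% interval 7.43 to 7.47) to 8.22% in ∆CTCF (8.19 to 8.24), a 1.1-fold range. These intervals, and all others below, cover counting error only. A bin pair held a median of 19 contacts in InvC∆Bor and 58 in ∆BorC1-4, and no pair was empty in all 8 libraries. No bin fell under 0.5 of the median coverage of the other 7 libraries. The lowest ratio was 0.775, in InvC∆Bor at the bin starting at 109.17 Mb. InvC had 22 bins more than 1.1-fold from the other libraries, InvC∆Bor had 5, and the remaining libraries had 0 or 1. The correlation of bin coverage between libraries ran from 0.968 to 0.998 across the 28 pairs of libraries.

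The flank was divided in the same way in all 8 libraries. The insulation score, log2 of the mean balanced contact across a bin border over the library's mean over all borders of the map, was lowest at 109.73 Mb, with a mean of -0.57 ± 0.05 (SD over the 8 libraries) for windows of 200 kb on each side. A low score means that few contacts cross the border. From the lowest to the highest, the score there was -0.63 in ∆CTCF, -0.60 in BorKnockIn, -0.60 in InvC, -0.59 in InvC∆Bor, -0.58 in ∆BorC1-4, -0.56 in ∆BorC1-2, -0.50 in InvIntra and -0.48 in ∆BorC1. The minimum fell in the same bin border in 8 of 8 libraries, and its prominence, the rise to the lower of the maxima on either side, ran from 1.21 to 1.36. These scores rest on at least 10478 raw contacts per library.

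A broader trough lay to its left. Its lowest border in the mean profile was at 109.48 Mb, where the score was -0.34 ± 0.04, and the single libraries placed it between 109.48 and 109.51 Mb. From 109.48 to 109.51 Mb, over 30 kb, the mean score was -0.34 throughout at this precision. The score at 109.48 Mb was -0.40 in BorKnockIn, -0.37 in ∆CTCF, -0.36 in InvC, -0.35 in ∆BorC1-4, -0.33 in ∆BorC1-2, -0.33 in ∆BorC1, -0.30 in InvIntra and -0.29 in InvC∆Bor. ∆CTCF and BorKnockIn were thus the lowest of the libraries at both minima, in opposite order, and InvC∆Bor was highest here but not at 109.73 Mb. BorKnockIn was also the lowest at borders away from the minima, such as 109.21 Mb (0.47) and 109.38 Mb (0.52), so its low rank was not particular to them.

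With 100 kb windows each library had 3 minima, at 109.30, 109.47 and 109.73 Mb, and each minimum fell on the same border in 8 of 8 libraries. The score was 0.02 ± 0.06 at 109.30 Mb, -0.49 ± 0.04 at 109.47 Mb and -0.93 ± 0.05 at 109.73 Mb. The dip at 109.30 Mb, between maxima on both sides, had a prominence of 0.56 to 0.72, but it was not found as a minimum with 200 kb windows. There the mean profile had a shallow dip at 109.31 Mb (0.61), under the prominence limit of 0.1. A 50 kb window, added after the data were seen to reach nearer to the right edge, placed a further minimum at 110.13 Mb in 8 of 8 libraries, with a score of -0.59 ± 0.05. The other minima at this window were at 109.10 (-0.01 ± 0.05), 109.30 (-0.16 ± 0.07), 109.47 (-0.33 ± 0.06), 109.73 (-1.05 ± 0.06) and 109.86 Mb (0.18 ± 0.02). Those at 109.47 and 109.86 Mb were found in 6 of the 8 libraries.

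**Figure D1:**
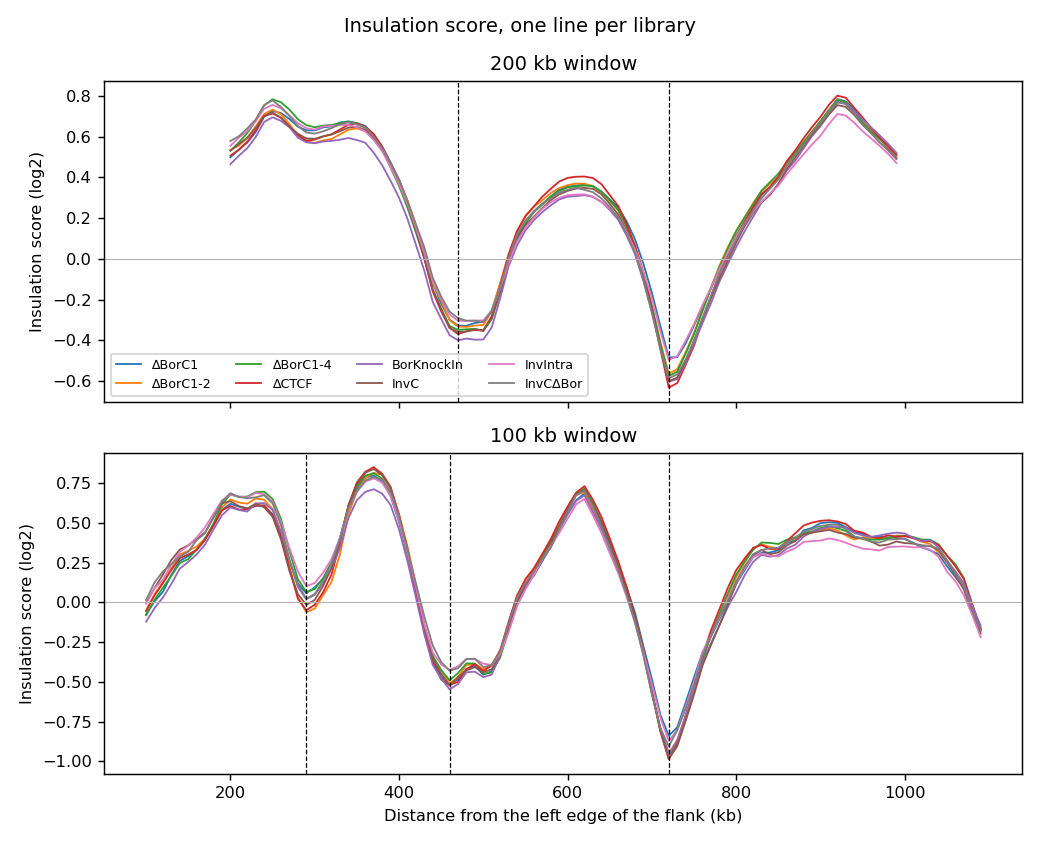
Insulation score (log2, vertical axis) against distance from the left edge of the flank in kb, with 1 line per library, for 200 kb windows (top) and 100 kb windows (bottom). Dashed lines mark the shared minima, at 470 and 720 kb in the top panel and at 290, 460 and 720 kb in the bottom panel, and the 8 lines run close together throughout.

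The profile varied little between libraries compared with its own relief. Over 80 borders with 200 kb windows, the SD over the 8 libraries was 0.03 in the median and 0.05 at most, while the mean profile spanned 1.34. The correlation of profiles between libraries was 0.991 to 0.999. In an equally long interval at the other end of the map, 113.69 to 114.88 Mb and called the right end below, the median SD was also 0.03 and the largest was 0.12. In a part of the same length within the edited interval, 111.11 to 112.30 Mb, the median SD was 0.10 and the largest 0.63, and profiles correlated between -0.41 and 0.96. Positions in the edited interval are those of the deposited maps, and the rearranged libraries can hold other sequence there.

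The minima of 200 kb windows divide the flank into a left domain (109.01 to 109.48 Mb), a middle domain (109.48 to 109.73 Mb) and a right domain (109.73 to 110.20 Mb). The first and the last are limited by the ends of the flank and not by a measured border. Contact is given below as the balanced value over the library's own mean at the same distance over the whole map, called observed over expected. To keep a library from choosing its own borders, they were taken for each library from the other 7. Contacts within domains were then 1.92 times those between neighbouring domains at equal distances from 20 to 300 kb (median of the 8 libraries). The ratio was 1.98 in ∆CTCF, 1.95 in InvC, 1.94 in BorKnockIn, 1.93 in ∆BorC1-4, 1.90 in ∆BorC1-2, 1.89 in InvC∆Bor, 1.86 in ∆BorC1 and 1.83 in InvIntra. No genotype lost the division into domains. The other 7 gave 2 borders in every case, at 109.73 Mb and at 109.48 or 109.49 Mb. With profiles correlated at 0.991 to 0.999, these borders are close to a library's own, so part of the ratio is built in. With the 3 borders of the 100 kb windows the median ratio was 1.53 (range 1.45 to 1.58).

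The 3 domains were alike in their inner contact. Observed over expected within the left domain was 1.48 (median; range over libraries 1.43 to 1.51), within the middle domain 1.44 (1.39 to 1.48) and within the right domain 1.48 (1.43 to 1.52), and these ranges overlap. Between domains the values were lower. The left and the middle domain stood at 1.07 (1.02 to 1.09), the left and the right domain at 0.857 (0.803 to 0.902), and the middle and the right domain at 1.17 (1.1 to 1.20). The middle domain thus had more contact with the right than with the left domain in each library, although the deeper minimum lies on its right, and the ranges of these pairs do not overlap. The value of the middle with the right domain includes a focal point described below. The left domain itself was uneven. Split at 109.30 Mb, its parts had an inner contact of 1.26 (1.20 to 1.30) and 1.60 (1.52 to 1.64), and their contact with each other, 1.60 (1.55 to 1.64), was as high as the latter. At 109.30 Mb, then, a local dip in contact was not accompanied by lower mean contact between the parts over all their distances. That mean includes the third and the fifth place described below, and it was not computed without them.

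**Figure D2:**
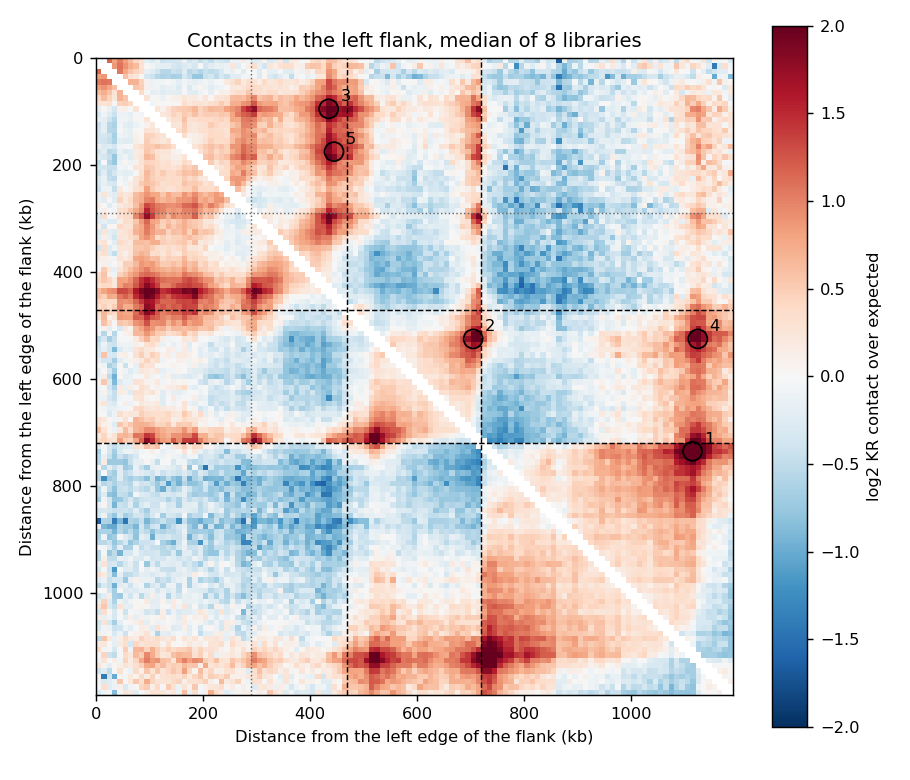
Median over the 8 libraries of log2 balanced contact over expected (colour) for pairs of 10 kb bins, both axes in kb from the left edge of the flank. Dashed lines mark the minima at 470 and 720 kb and the dotted line that at 290 kb, numbered circles mark the 5 highest places, and the blank diagonal holds pairs under 20 kb apart. Squares of higher contact lie along the diagonal. Places 1 and 2 lie towards the corners of the right and the middle square, places 3 and 5 lie within the left square, and place 4 lies off the diagonal squares.

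The highest contacts were focal. A place is a square of 3 by 3 bins, at least 100 kb from the diagonal, and the 5 highest in the median over libraries were examined. The first joined 109730001-109760000 to 110110001-110140000, both in the right domain, at a distance of 380 kb. Its left end adjoins the 109.73 Mb border and its right end lies at the 110.13 Mb minimum of the 50 kb window, inside the edge of the flank. Observed over expected there was 7.92 in ∆BorC1-2, 7.77 in ∆CTCF, 7.74 in ∆BorC1, 7.58 in BorKnockIn, 7.43 in ∆BorC1-4, 6.86 in InvC∆Bor, 6.68 in InvC and 6.35 in InvIntra, from 1322 to 4386 contacts. The 3 libraries with an Inv label were the lowest. Among the 5 places it was the highest in each library. Its peak, sought only in the bins close around, fell in the same bins in 8 of 8. Against the ring of bins around it, the place stood 2.93 to 3.39 times higher.

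The second place joined 109.535 and 109.715 Mb in the middle domain, at a distance of 180 kb. Its left end lies just right of the flat trough and its right end adjoins the 109.73 Mb border. Its value was 4.18 (median; 3.88 in InvIntra to 4.33 in ∆BorC1-2), and the exact Poisson intervals of these libraries, 3.74 to 4.02 and 4.18 to 4.49, do not overlap. The third joined 109.105 and 109.445 Mb inside the left domain at 4.01 (3.78 to 4.14). The fourth joined 109.535 and 110.135 Mb, 600 kb apart, at 3.84 (3.24 in InvC to 4.27 in ∆BorC1-2). It spans the 109.73 Mb border and shares its ends, to within 1 bin, with the second and the first place. The fifth joined 109.185 and 109.455 Mb at 3.29 (2.91 to 3.49). In 7 libraries the 5 places had the same order, and in ∆BorC1-2 the third and the fourth were exchanged. Each peak was sought only in the bins close around its median position, and there it lay within 1 bin of that position in 8 of 8 libraries. The places were chosen on the median of the same libraries, so part of this repeat is built in. The next highest place, 109.305 with 109.445 Mb, had 3.14, close below the fifth.

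**Figure D3:**
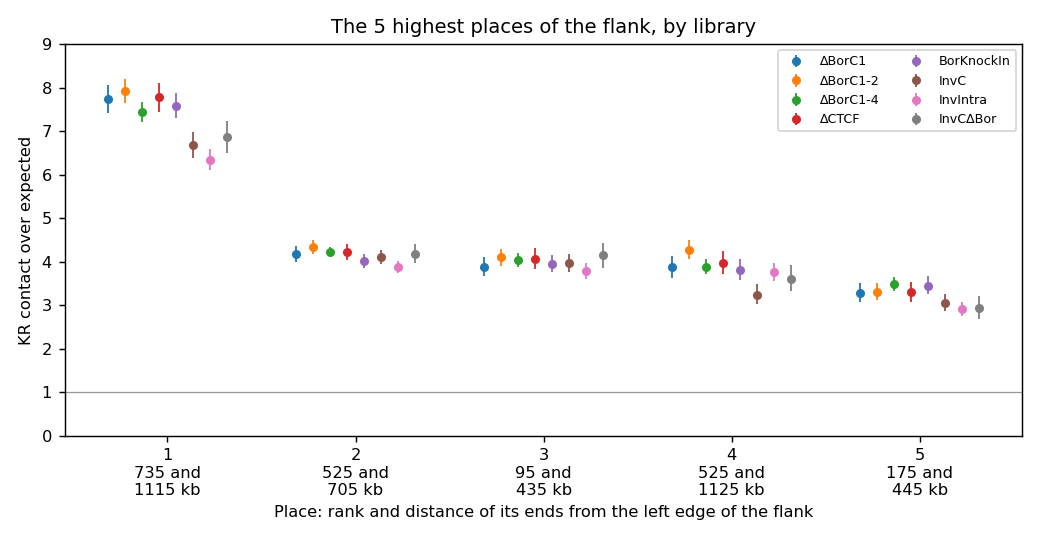
Balanced contact over expected (vertical axis, from 0) at the 5 highest places of the flank, with 1 point per library and exact Poisson 95% intervals as bars. The horizontal axis gives rank and the distance of both ends from the left edge of the flank, and the line at 1 is the expected contact. The first place lies between 6.35 and 7.92 and the others between 2.91 and 4.33.

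The ends of these places formed a small set of positions, and their contact across domain borders varied with the pair, from 0.648 to 3.84 times expected. Near the strongest border they differed over a short distance. The position at 109.715 Mb had 2.17 times the expected contact with 109.185 Mb (2.12 to 2.26), and that at 109.745 Mb, 30 kb further right, had 1.12 (0.909 to 1.26). With 109.455 Mb the values were 1.72 (1.49 to 1.93) and 0.836 (0.750 to 0.919). With 110.135 Mb the same positions had 3.43 (3.00 to 3.91) and 7.23 (6.21 to 7.65). The bias in direction was measured as log2 of mean contact to the right over mean contact to the left within 200 kb. It was -1.50 ± 0.05 at 109.715 Mb, the strongest leftward bias of the 77 bins measured, and 0.60 ± 0.04 at 109.745 Mb. The flat trough had the same arrangement at a wider spacing. The position at 109.455 Mb was biased to the left (-0.95 ± 0.05) and that at 109.535 Mb to the right (1.11 ± 0.04), with the same sign in 8 of 8 libraries at all 4 positions. These 2 positions, 80 kb apart, had 0.648 times the expected contact with each other (0.623 to 0.708). The most distant pair, 109.105 with 110.135 Mb, had 1.73 times the expected contact (1.21 in InvC to 1.94 in InvIntra). The left and right domains as a whole had 0.857, which pools shorter distances too. Nearer in distance, all pairs of the flank 1000 kb apart had a median of 1.18 times the map's mean. The positions were taken from the highest places, so their high values are a description.

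The lowest places lay across the borders. The lowest value was 0.426 (0.388 to 0.532) for 109.425 with 109.815 Mb, 390 kb apart. It was followed by 0.475 (0.379 to 0.564) for 109.455 with 109.895 Mb, 0.495 (0.466 to 0.594) for 109.685 with 109.785 Mb, 0.53 (0.510 to 0.594) for 109.435 with 109.585 Mb and 0.542 (0.491 to 0.627) for 109.295 with 109.815 Mb. In 3 of the 5 the right end lay within 100 kb to the right of the 109.73 Mb border. The first, the second and the fifth rest on medians of 137, 108 and 120 contacts, and as few as 57 in InvC∆Bor, so the order of these places was not detectable at this depth.

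Contact fell with distance in a like manner in all libraries. The slope of log10 contact on log10 distance from 20 to 200 kb was -0.80 ± 0.03 (SD, n = 8 libraries), from -0.85 in ∆CTCF to -0.74 in InvIntra. From 200 to 1000 kb it was -1.15 ± 0.05, from -1.25 in InvC to -1.09 in ∆BorC1-4. At the right end the slopes were -0.82 ± 0.03 and -1.01 ± 0.05. The flank was less steep than the right end by 0.02 ± 0.01 at short distance, and at long distance its slope differed by -0.15 ± 0.04, each in 8 of 8 libraries. The exact sign-flip permutation test over libraries (two-sided) gave p = 0.00781 for both, which is the smallest value that 8 libraries allow and remains 0.00781 after Benjamini-Hochberg adjustment over the 2 tests. The libraries are different genotypes, so the test speaks for this set of libraries. It sets 1 stretch of sequence against 1 other, measured again in each library. The p-value thus concerns how the difference between these stretches repeats, and not other regions. From 50 to 500 kb the difference was 0.0148, with an exact permutation p = 0.0547, so the short-distance difference depended on the range chosen. Its size rose to 0.03 with no bins left out or with raw counts and to 0.04 with thinned raw counts, with the same sign.

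Relative to the whole map, contact in the flank was higher at most distances up to 600 kb. The ratio of the flank's mean to the map's mean was 1.15 at 20 kb (1.13 to 1.17), 1.27 at 200 kb (1.24 to 1.29) and 1.38 at 400 kb (1.31 to 1.44). It was 1.04 at 500 kb (0.975 to 1.07), 1.17 at 600 kb (1.1 to 1.23) and 0.906 at 800 kb (0.800 to 0.974). At 1000 kb it was 1.18 (1.07 to 1.27), above the map in all 8 libraries again. The ratio thus had no single course at long distance. Pairs this far apart join only bins near the left and the right end of the flank. Balancing raises the low-coverage bins at the left edge, and its part in the 1000 kb value was not tested. With raw counts the long-distance slope was steeper, -1.25 in place of -1.15. The high ratio at 400 kb lies near the 380 kb spacing of the first place, and that at 600 kb equals the spacing of the fourth. The part of these places in the ratios was not tested.

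**Figure D4:**
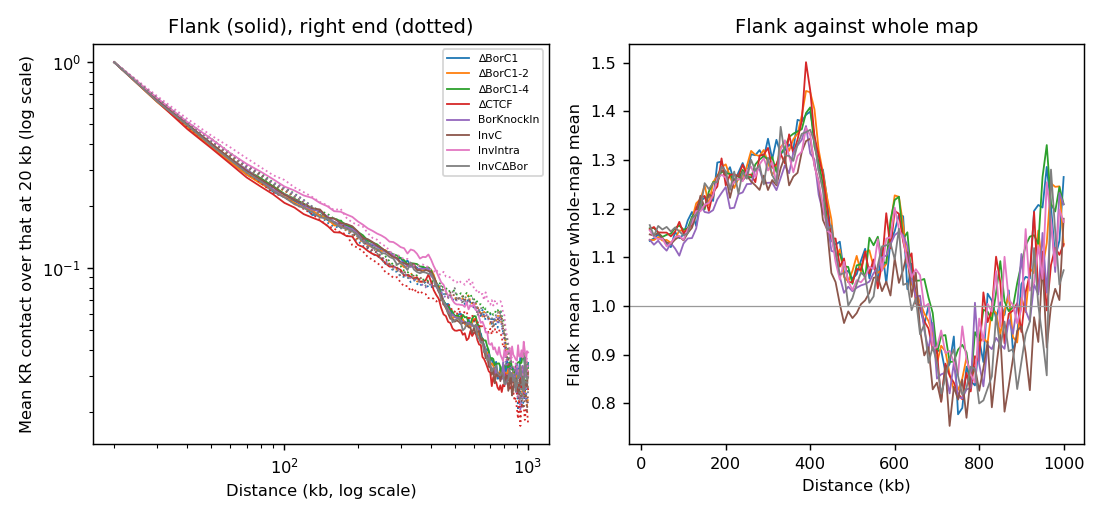
Left panel, mean balanced contact over that at 20 kb against distance, both on log scales, with 1 solid line per library for the flank and 1 dotted line for the right end. Right panel, mean contact in the flank over that of the whole map against distance in kb, with 1 line per library and a line at 1. The lines of the 8 libraries rise to between 1.31 and 1.44 at 400 kb lie between 0.800 and 0.974 at 800 kb and stand above 1 again at 1000 kb.

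The repeat of the full pattern was examined in pairs of 50 kb blocks at least 100 kb apart, of which the flank holds 231. Log2 observed over expected correlated between libraries at a median Pearson r of 0.982 (0.975 to 0.988) and a Spearman rho of 0.977 over the 28 pairs of libraries. These are descriptions across block pairs, which share bins and are not independent. The lowest r was that of BorKnockIn with InvC∆Bor, the shallowest library, and the highest that of ∆BorC1-4, the deepest, with InvIntra. The SD over libraries of a block pair had a median of 0.07 on the log2 scale, a factor of 1.05, and the layout itself had an SD of 0.54 to 0.61 within a library. At the right end the median r was 0.987 and in the edited interval 0.685.

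The spread between libraries grew with distance. Pairs 100 to 250 kb apart had a median SD of 0.05 and those 600 to 1100 kb apart 0.10, with median r of 0.992 and 0.949. Contacts per block pair also fell with distance. The pair at 109.01 and 110.06 Mb, 1050 kb apart, held 82 to 258, against a flank mean of 1173. The ratios to Poisson counts given next pool all distances, so the part of counting error in this rise was not tested. For 10 kb bin pairs at least 100 kb apart, the variance of raw counts between libraries, given each library's total at each distance, was 1.11 times that of Poisson counts. The spread beyond counting was 5.02% of a bin pair's value, against a counting error of 15.3%. In 50 kb blocks the variance was 2.90 times Poisson, and the spread beyond counting was 4.03% against a counting error of 2.92%. The corresponding spread beyond counting in blocks was 5.43% at the right end and 19.1% in the edited interval. Each pair of libraries differed by more than counting in blocks. The ratio to the Poisson variance ran from 1.57 (InvC with InvC∆Bor) to 5.16 (∆CTCF with InvIntra), so no library was a copy of another. For 10 kb bin pairs it ran from 1.03 to 1.22. Raw counts keep differences in bin coverage between libraries, and their part in these ratios was not tested.

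Few block pairs of the flank departed from the other libraries. A departure was set at more than 0.32 on the log2 scale from the median of the other 7 libraries, for block pairs with at least 100 contacts. Over the whole map the share of block pairs past this limit was lowest in ∆BorC1-2, at 6.28%, followed by ∆BorC1-4 with 7.36%, ∆BorC1 with 9.4% and InvC∆Bor with 11.7%. It was 15.5% in ∆CTCF, 29.9% in InvIntra, 30.5% in BorKnockIn and 34.5% in InvC. In the flank 14 of 1848 values (0.758%) passed it: 7 in InvC, 3 in InvC∆Bor, 2 in ∆BorC1-2, 1 each in BorKnockIn and InvIntra, and 0 of 231 in each of ∆BorC1, ∆BorC1-4 and ∆CTCF. With 1 library per genotype no test was made. The map also holds pairs much further apart than the flank can, so the regions of equal length are the closer comparison: 39 of 1848 values (2.11%) at the right end and 304 (16.5%) in the edited interval. At the right end 23 of the 39 were in BorKnockIn.

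The 7 departures of InvC were all lower, at 0.743 to 0.794 times the other libraries, and joined blocks 600 to 1050 kb apart. The 3 with an end at 110.11 Mb started at 109.16, 109.21 and 109.41 Mb. Among the 7, the block pair at 109.21 and 110.11 Mb had 279 contacts in InvC and the lowest ratio, 0.743. InvC also had the steepest long-distance slope and the most bins with departing coverage, and the part of either in these values was not tested. With the expectation taken over the flank alone, InvC had no departure and the flank 2 in all, so the 7 did not persist when each library was set against its own decay in the flank.

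**Figure D5:**
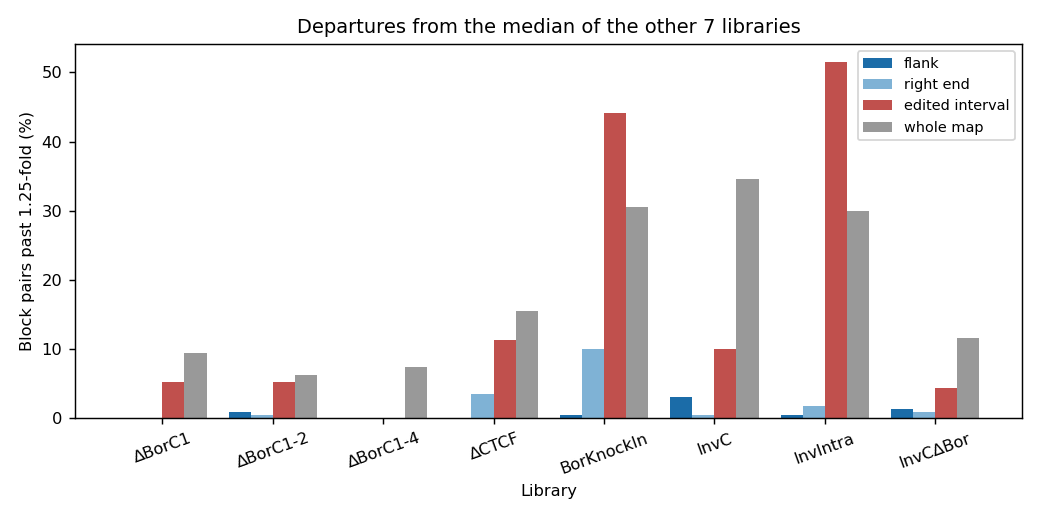
Percent of 50 kb block pairs more than 0.32 (log2) from the median of the other 7 libraries (vertical axis, from 0), by library, for the flank, the right end, the edited interval and the whole map. The flank bars reach at most 3.03% (InvC), while those of the whole map run from 6.28% to 34.5%.

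The first place was lower in the 3 libraries whose label begins with Inv than in the other 5, a comparison made after its values were seen and given without a test. InvC, InvIntra and InvC∆Bor had 6.63 ± 0.26 (6.35 to 6.86) and the others 7.69 ± 0.19 (7.43 to 7.92), a ratio of 0.862, and the groups did not overlap. Against the ring around the place they also did not overlap, with 2.93 to 3.06 in the Inv libraries and 3.20 to 3.39 in the others. With the expectation of the flank alone the values were 4.77 to 5.09 and 5.40 to 5.65. The groups also did not overlap at the fourth place, with 3.24 to 3.76 in the Inv libraries against 3.81 to 4.27, nor at the fifth, with 2.91 to 3.06 against 3.29 to 3.49. They overlapped at the second and the third place. With the expectation of the flank alone the same 3 of the 5 places were without overlap, the fourth by a narrow margin (3.06 to 3.24 against 3.27 to 3.58). Against the ring the groups at the fourth place overlapped (1.88 to 2.05 and 1.98 to 2.2). Over all block pairs of the map with at least 100 contacts, the Inv libraries all lay below the others in 1.54% and all above in 5.27%. In the flank they lay below in 18 of 231 block pairs (7.79%) and above in 5 (2.16%), and with the expectation of the flank alone in 10 (4.33%) and 12 (5.19%). The direction in block pairs thus changed with the expectation, and that at the first, the fourth and the fifth place did not. The Inv libraries are different genotypes, and InvC∆Bor is the shallowest library of all. What sets their lower value at the first place was not tested.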

How the data were processed

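The authors deposited 1 map of raw counts (read pairs joining 10 kb bins) for each library. The balanced values (KR, Knight-Ruiz, as the deposited files are named) are a signal that the authors derived from the counts, with equal bin sums and no scaling between libraries. Juicer, Bowtie2 2.2.6 and the build mm9 are named per the submitters' processing notes, with read filters not given in the sources used here. Everything else was computed with scipy 1.17.1, pandas 2.3.3, numpy 2.4.6, matplotlib 3.10.9 and Python 3.11.15.

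Balancing covers the captured map only, so bins at its left edge, where the first bin had 0.274 to 0.311 of the median coverage, are raised. The 7 bins under 0.1 of a library's median coverage, none of them in the flank, were left out. A minimum is the lowest border within 50 kb on either side with a prominence of at least 0.1, shared if found within 1 bin in at least 6 of 8 libraries (5 of 7 where a library was left out). Blocks of 50 kb cover 109.01 to 110.16 Mb, and departures are values past 1.25-fold. The ring is the square of 11 by 11 bins without its inner 5 by 5. Regions were named by rule: shared minima, domains between them, the 5 highest and 5 lowest places with at least 100 contacts in the median library, and the 5 block pairs with the largest SD. The members and lists were chosen with earlier results of these data known. Positions joined in the text as ends of places, direction, the 50 kb window and the Inv comparison were chosen after the values were seen. On simulated maps with 6903 flank bin pairs, 12 of 12 borders and 6 of 6 peaks were found, with 0 extra borders. In 1 library of each simulated set, 120 of 120 block pairs changed by 1.5-fold passed the 1.25-fold limit, and 0 of 1266 others did. These maps held Poisson counts, without balancing or differences in bin coverage. In the flank 0 departures passed 1.5-fold, and block variance was 2.90 times Poisson. The check thus does not give the recovery or the false calls for the departures reported. No mm9 genome was used, so no sequence is printed.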

Additional observations from a re-analysis of the deposited data

Results flagged for a closer look

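Among 37 values compared over the 8 libraries, 2 had a library whose gap to the nearest other exceeded 0.53 of the whole range, and chance gives about 1 in 20. The libraries are 8 genotypes and not replicates. Observed over expected within the left domain was 1.43 in BorKnockIn, below the next lowest at 1.47. For the block pair at 109.21 and 110.11 Mb, log2 observed over expected was -0.0540 in InvC, and the next lowest library had 0.22.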

How the results depend on the processing

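Of 171 alternative values 144 stayed the same, 0 turned, 26 moved and 1 lost its call. For tested differences and the Inv comparison the same means a kept call, and for means and medians a move within the SD over libraries. For counts and median SDs it means within 1.5-fold, so 3 shared minima (100 kb window) were the same as 2. Of all values, 89 were added after seeing the data, and 104 left out 1 library, of which 0 moved. Leaving out 1 of 8 libraries cannot shift a mean by that SD, turn a difference of 1 sign in all 8, or make groups overlap. For mean scores, slopes and the Inv comparison this outcome was thus fixed in advance. No paired analysis was possible because each genotype has 1 library, so that no replicate numbers pair one genotype with another. The slope difference is between regions of the same library. The score at 109.73 Mb, -0.57, became -0.93 (100 kb window), -0.78 (raw counts), -0.78 (thinned raw) and -0.88 (mean of the flank), and that at 109.48 Mb, -0.34, became -0.46, -0.67, -0.67 and -0.66. Shared minima, 2, became 1 when required in all 8 libraries and 6 with a 50 kb window. The domain contrast on the log2 scale, 0.94, became 0.61 (100 kb borders), 0.77 (raw) and 0.77 (thinned). The median r, 0.982, became 0.766 (10 kb bin pairs) and 0.978 (at least 300 kb), and the median SD, 0.07, became 0.27 with 10 kb pairs. The slope in the flank, -0.80, became -0.75 from 50 to 500 kb, where the difference from the right end became 0.0148 and lost its call (p = 0.0547, exact permutation test; p = 0.00781 under every other setting with 8 libraries). The long-distance slope, -1.15, became -1.25 (raw) and -1.26 (thinned). Departures in the flank, 14, became 0 (1.5-fold), 4 (at least 400 contacts), 2 (expectation of the flank) and 24 (thinned raw). The first place, 7.50, became 5.46 (expectation of the flank), 6.76 (raw) and 6.78 (thinned). Without 1 library in turn it ran from 7.43 to 7.58, the median r from 0.981 to 0.984 and the score at 109.73 Mb from -0.58 to -0.56. Apart from settings that change the window, the range, the limit or the reference mean, for these moves the cause was not tested. The short-distance slope difference, 0.0219, became 0.0338 (no bins left out), 0.0346 (raw) and 0.0365 (thinned) and kept its call. The most variable block pair, 109.01 with 110.06 Mb (SD 0.24), held 82 to 258 contacts, and the part of depth in its spread was not tested.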

Other observations

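The 5 block pairs with the largest SD over libraries were all 850 to 1050 kb apart, and 3 of them had an end in the first or second 50 kb of the map. Their SDs ran from 0.16 to 0.24 on the log2 scale. For 109.01 with 109.86 Mb the values ran from -0.88 in ∆BorC1-2 to -0.25 in InvIntra, with 75 to 224 contacts. For 109.26 with 110.11 Mb they ran from 0.09 in InvC∆Bor to 0.55 in ∆BorC1-4.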
